A study of Mus musculus with 12 samples.

Results

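Heme is made by a chain of enzymes, and 8 genes that encode them were followed in RNA sequencing libraries of mouse liver. The genes were taken as the rows of the deposited gene table whose symbol was Alas1, Alas2, Alad, Uros, Urod, Cpox, Ppox or Fech, which gave 8 of 41128 genes. The 12 libraries came from liver of C57BL/6 mice aged 6 weeks, all born germ-free and kept in sterile isolators up to weaning at 21 days. In the germ-free groups (GF) 3 males and 3 females stayed in isolators. In the conventionalized groups (CV) 3 males and 3 females were caged for the last 3 weeks on used bedding from the animal facility. Each library was 1 mouse and the RNA came from whole liver, so that fewer cells of a type and less RNA per cell cannot be told apart.

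Heme synthesis starts in mitochondria, where aminolevulinate synthase joins glycine to succinyl-CoA. Alas1 encodes the form found in most tissues, the rate-limiting and heme-repressed enzyme of liver, and Alas2 encodes the form of red cell precursors. The next steps run in the cytosol. Alad makes porphobilinogen, Uros forms the porphyrin ring and Urod trims its side groups. The last steps return to the mitochondrion, where Cpox and Ppox oxidize the ring and Fech inserts iron. Liver uses much of its heme for cytochrome P450 enzymes.

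The 8 genes are protein-coding in the GENCODE annotation of GRCm38. Alas1 lies at chr9:106233455-106248654, Alas2 at chrX:150547375-150570638, Alad at chr4:62509169-62519918, Uros at chr7:133686243-133710072, Urod at chr4:116989965-116994413, Cpox at chr16:58670292-58717636 and Ppox at chr1:171275990-171281186.

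Promoter sequences from RefSeq on GRCm38.p6 are shown for the housekeeping and the erythroid synthase, whose tissue use differs, and for 3 cytosolic enzymes of which some rose and some fell. The table held 10 start sites for 7 of the 8 genes, and the 250 bases before a start were searched on both strands. Each sequence is written 5′ to 3′ on the gene's own strand, and the capitals mark the letters that were searched. In the Alas1 promoter (chr9:106247731-106247980, minus strand) the capitals mark GCATGCGC, the core of sites for the factor NRF1, found on both strands in overlapping copies that start at positions -195 and -193 from the transcription start. These letters were present in 2.26% of 32851 promoters. In the Alas2 promoter (chrX:150547167-150547416, plus strand) they mark, all on the reverse strand, the letters TATAAA, the letters AGATAA bound by erythroid GATA factors, and 3 copies of CCACCC, the sequence of CACC boxes. Of all promoters, 12.4% held TATAAA, 16.6% held AGATAA or else TGATAA, and 28.1% held CCACCC. In Alad (the start site further downstream, chr4:62519910-62520159, minus strand), Urod (chr4:116994414-116994663, minus strand) and Uros (chr7:133709296-133709545, minus strand) the capitals mark CACGTG, an E-box, which 6.02% of promoters held.
Alas1: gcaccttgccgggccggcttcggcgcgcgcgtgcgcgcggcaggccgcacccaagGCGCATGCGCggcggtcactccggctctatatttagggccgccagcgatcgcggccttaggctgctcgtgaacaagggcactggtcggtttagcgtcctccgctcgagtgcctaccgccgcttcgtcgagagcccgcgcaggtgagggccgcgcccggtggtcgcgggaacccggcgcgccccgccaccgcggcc
Alas2: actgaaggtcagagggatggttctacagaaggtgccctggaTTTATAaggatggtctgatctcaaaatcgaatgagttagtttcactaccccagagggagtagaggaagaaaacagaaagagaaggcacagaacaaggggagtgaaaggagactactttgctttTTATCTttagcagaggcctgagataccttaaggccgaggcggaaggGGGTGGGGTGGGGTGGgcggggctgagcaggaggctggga
Alad: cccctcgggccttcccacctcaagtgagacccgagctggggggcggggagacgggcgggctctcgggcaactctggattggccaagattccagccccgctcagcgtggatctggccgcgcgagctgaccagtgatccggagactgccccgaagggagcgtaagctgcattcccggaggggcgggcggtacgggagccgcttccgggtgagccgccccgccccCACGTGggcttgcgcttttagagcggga
Urod: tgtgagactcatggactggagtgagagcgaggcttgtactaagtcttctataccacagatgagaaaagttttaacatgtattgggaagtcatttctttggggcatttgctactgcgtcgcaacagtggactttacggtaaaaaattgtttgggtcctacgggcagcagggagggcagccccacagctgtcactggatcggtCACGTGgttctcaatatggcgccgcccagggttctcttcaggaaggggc
Uros: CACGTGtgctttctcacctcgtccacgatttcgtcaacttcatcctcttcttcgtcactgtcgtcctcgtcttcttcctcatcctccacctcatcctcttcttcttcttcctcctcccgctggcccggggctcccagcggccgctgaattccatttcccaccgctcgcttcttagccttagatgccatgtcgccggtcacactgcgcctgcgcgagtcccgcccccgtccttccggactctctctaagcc
The E-box started at position -28 in this Alad promoter, at -49 in Urod and at -250 in Uros, and the other Alad start site held one at -105. The upstream Alas1 start held CCACCC and the downstream Uros start TGATAA, which the Cpox promoter also held. In contrast, the Ppox promoter held none of the letters searched. Alad and Urod, which rose between the conditions, and Uros, which fell, each held the E-box letters. Whether these letters bear on the levels was not tested.

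Libraries held 5993619 to 15290835 reads assigned to genes. The conditions differed in what was sequenced. Mitochondrial ribosomal RNA took 12.6 ± 2.85% of reads in GF and 3.12 ± 2.32% in CV libraries (mean ± SD, n = 6 each). Nuclear protein-coding genes other than Lars2 took 24.3 to 50.8% in GF and 73.9 to 92.2% in CV libraries. Lars2 was left out of this class here and wherever libraries were scaled to nuclear protein-coding reads, and its own share is not given. In the library labelled CV male 3, Xist stood at 2382 with 0 Y-linked reads of 8890529, which allows up to 3 reads, while the other labelled males had Xist values of 4.68 to 21.3 and 796 to 1314 Y-linked reads. This library therefore went against its sex label. Of 9 tested hepatocyte markers 8 rose in CV livers over both sexes, against 32.3% of all tested genes. In males alone 0 rose, against 1660 of 11782 genes. Cps1 of the same list read 9528 to 11198 in GF and 5914 to 15628 in CV livers, with 4 CV libraries below the GF range and 2 above it. Fah rose by 0.91, Serpina1b by 1.08 and Fgb by 1.2 on the log2 scale. The count depended on the scaling. After removal of a trend on transcript length and GC content 4 rose and 0 fell, against 3814 and 2862 of 11731 genes. When scaled to nuclear protein-coding reads 1 rose and 1 fell, against 1496 and 5866 of 11782 genes. The summed value of the list was 105352 to 457113 in GF and 385208 to 625327 in CV livers.

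To ask how the pathway relates to colonization, CV was compared with GF livers by limma on log2(value + 1), where the value is the deposited read count divided by a library size factor, over 11782 genes with a mean value of at least 10. All 8 enzymes passed this minimum, and between 61 and 4927 reads stood behind each value. Over both sexes Alad, Urod, Cpox and Fech rose, Uros and Ppox fell, and Alas1 and Alas2 did not pass the test. A gene was called at an adjusted p under 0.05 (Benjamini-Hochberg over all tested genes). The 6 of 8 enzymes called (75.0%) compare with 61.1% of all tested genes, so the count alone did not set the pathway apart. In either direction, all 6 CV libraries lay outside the range of all 6 GF libraries for 5 of the 8 enzymes (62.5%), against 31.3% of tested genes. The median log2 change of the 8 enzymes was 0.26, and that of all tested genes was 0.07.

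**Figure D1:**
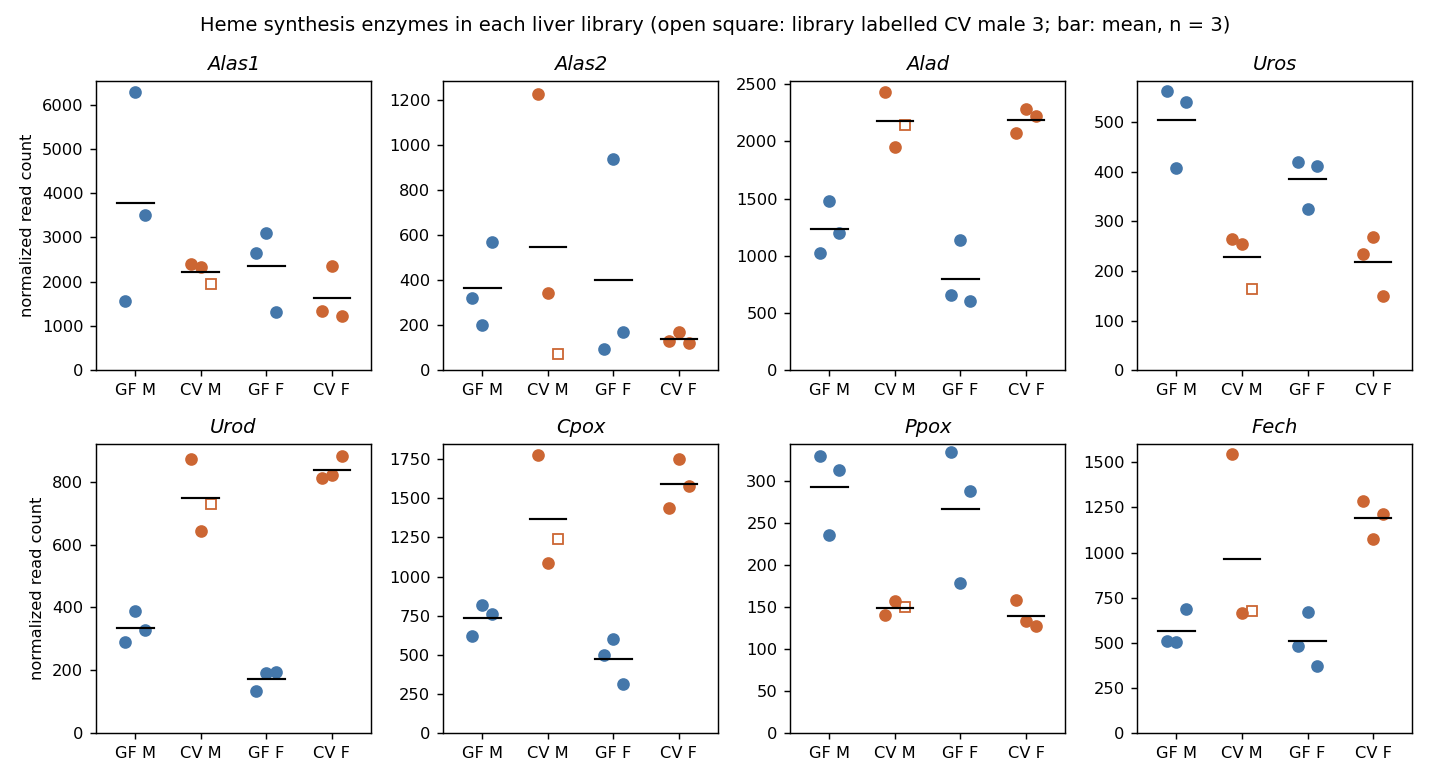
Normalized read count (deposited read count per library size factor, linear axis from 0) of each enzyme in the 12 libraries, by condition and labelled sex, with 1 point per mouse, a bar at the mean of 3 and an open square for the library labelled CV male 3. Urod, Cpox and Alad lay higher in every CV than in every GF library, Uros and Ppox lower, and Alas1, Alas2 and Fech overlapped.

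The first, rate-limiting step varied widely within groups. Alas1 read 1575, 6281 and 3505 in GF males and 2640.2, 3091 and 1315 in GF females. In CV livers Alas1 read 2407, 2325 and 1948 in males and 1334, 2361 and 1222 in females. The 6 CV values lay within or just below the GF range, whose highest value came from GF male 2. The mean was 3068 ± 1789 in GF and 1933 ± 534 in CV livers (SD, n = 6), and the log2 change was -0.52 ± 0.31 (SE, adjusted p = 0.146, limma), with a 95% interval of -1.17 to 0.12. The size of this difference depended on single libraries and on the scaling. Leaving out 1 library at a time gave changes of -0.79 to -0.29, with -0.79 (adjusted p = 0.0207) without GF male 1 and -0.29 (adjusted p = 0.382) without GF male 2, and in males the change was -0.08 without GF male 2. DESeq2 gave -0.68 (adjusted p = 0.036), scaling to nuclear protein-coding reads gave -1.21 (adjusted p = 8.23e-04), and scaling to all reads gave 0.04 (adjusted p = 0.923).

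Alas2, the erythroid form of the same step, ranged more widely still. It read 321, 202 and 571 in GF males and 92.1, 939 and 169 in GF females. In CV livers it read 1226, 344 and 71.8 in males and 132, 169 and 121 in females. CV male 1 held the highest value of the 12 libraries and the library labelled CV male 3 the lowest, so the CV range enclosed that of GF. The log2 change was -0.45 ± 0.58 (SE, adjusted p = 0.511, limma; 95% interval -1.67 to 0.77). It was 0.07 with the library labelled CV male 3 left out and -0.94 with CV male 1 left out, and neither passed the test. Alas2 overlaps Apex2, a DNA repair gene on the opposite strand, over 311 exon bases. Apex2 fell by 1.34 on the log2 scale (adjusted p = 2.27e-05), and the strand setting of the counting is not given in the sources used here.

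Alad, which condenses aminolevulinate into porphobilinogen, rose. It read 1024, 1483 and 1198 in GF males and 655, 1136 and 606 in GF females. In CV livers it read 2436, 1951 and 2144 in males and 2072, 2279.9 and 2219.9 in females. Every CV library lay above every GF library. The mean went from 1017 ± 336 to 2184 ± 169 (SD, n = 6), a 2.25-fold rise on the log2(value + 1) scale (log2 1.17 ± 0.19 SE, adjusted p = 6.74e-05, limma).

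Uros, which closes the linear tetrapyrrole, fell. Its values were 562, 409 and 541 in GF males and 419.6, 325 and 412 in GF females. In CV livers they were 265, 254 and 164 in males and 234, 269 and 149 in females. The ranges did not overlap. The mean went from 445 ± 90.1 to 223 ± 52.6 (SD, n = 6), with a log2 change of -1.01 ± 0.19 (SE, adjusted p = 2.90e-04, limma). Scaled to all reads the change was -0.45 and lost its call (adjusted p = 0.107). Bccip, which overlaps the Uros gene on the opposite strand with 0 shared exon bases, rose by 1.42 on the log2 scale (adjusted p = 1.66e-05, limma).

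Urod, which acts directly after Uros, rose. Its values were 289, 387 and 327 in GF males and 133, 192 and 194 in GF females. In CV livers they were 873, 642 and 729 in males and 813, 822 and 884 in females. The lowest CV library, male 2, stood above the highest GF library, male 2 (642 against 387). The mean went from 254 ± 96.6 to 794 ± 92.5 (SD, n = 6), a 3.31-fold rise (log2 1.73 ± 0.16 SE, adjusted p = 9.39e-07, limma).

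Cpox, which forms protoporphyrinogen in the mitochondrial intermembrane space, rose as well. It read 618, 817 and 761 in GF males and 498, 601 and 314 in GF females. In CV livers it read 1776, 1084 and 1237 in males and 1437, 1749 and 1582 in females. Again no CV library reached down to a GF library. The mean went from 602 ± 182 to 1478 ± 278 (SD, n = 6), a 2.53-fold rise (log2 1.34 ± 0.19 SE, adjusted p = 2.57e-05, limma).

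Ppox, which oxidizes protoporphyrinogen to protoporphyrin, fell between 2 steps that rose. Its values were 329.5, 236 and 313 in GF males and 334, 178 and 288 in GF females. In CV livers they were 141, 157 and 149.9 in males and 158, 134 and 127 in females. The CV values were tightly grouped and all lay below the GF values. The mean went from 279.6 ± 61.3 to 144 ± 12.6 (SD, n = 6), with a log2 change of -0.92 ± 0.18 (SE, adjusted p = 3.58e-04, limma). As with Uros, the call was lost when libraries were scaled to all reads (-0.36, adjusted p = 0.202). B4galt3, a galactosyltransferase gene on the opposite strand that shares 791 exon bases with Ppox, had a change of -0.40 (adjusted p = 0.175).

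Fech, the iron-inserting last enzyme, rose over both sexes. It read 511, 503 and 686 in GF males and 482, 670.3 and 372 in GF females. In CV livers it read 1545, 665 and 678 in males and 1288, 1077 and 1216 in females. CV male 2 and the library labelled CV male 3 fell within the GF range and the other 4 CV libraries lay above it. The mean went from 537 ± 120.1 to 1078 ± 350 (SD, n = 6), a 1.95-fold rise (log2 0.96 ± 0.22 SE, adjusted p = 0.00137, limma). Scaled to nuclear protein-coding reads, the change was 0.28 and was not called (adjusted p = 0.211).

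The directions of the 6 called enzymes held under each of the 5 scalings tried (the deposited factors, all reads, nuclear protein-coding reads, TMM factors, and removal of a trend on transcript length and GC content), with log2 changes of 0.49 to 1.73 for Alad, 1.04 to 2.29 for Urod, 0.65 to 1.90 for Cpox, 0.28 to 1.53 for Fech, -1.69 to -0.45 for Uros and -1.60 to -0.36 for Ppox. The median of all genes moved with the scaling, from 0.07 with the deposited factors to 0.63 with all reads and -0.59 with nuclear protein-coding reads. Of the 8 enzymes, 4 were called higher and 2 lower with the deposited factors, 4 and 0 with all reads, and 3 and 3 with nuclear protein-coding reads. Relative to the median of all genes, Urod was higher by 1.65 with the deposited factors and by 1.66 with all reads, and Ppox lay at -0.996 and -0.989. With the length and GC trend removed, Urod was higher by 0.98, Alad by 0.50 (against 1.10 with the deposited factors) and Fech by 1.38, and Uros lay at -1.55. With the mitochondrial ribosomal RNA share as a covariate, 0 of 8 enzymes and 0 of 11782 genes were called by limma over both sexes (1985 genes at an unadjusted p under 0.05). Since between-group differences made up 93.5% of the variance of this covariate, it cannot be told apart from the condition.

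**Figure D2:**
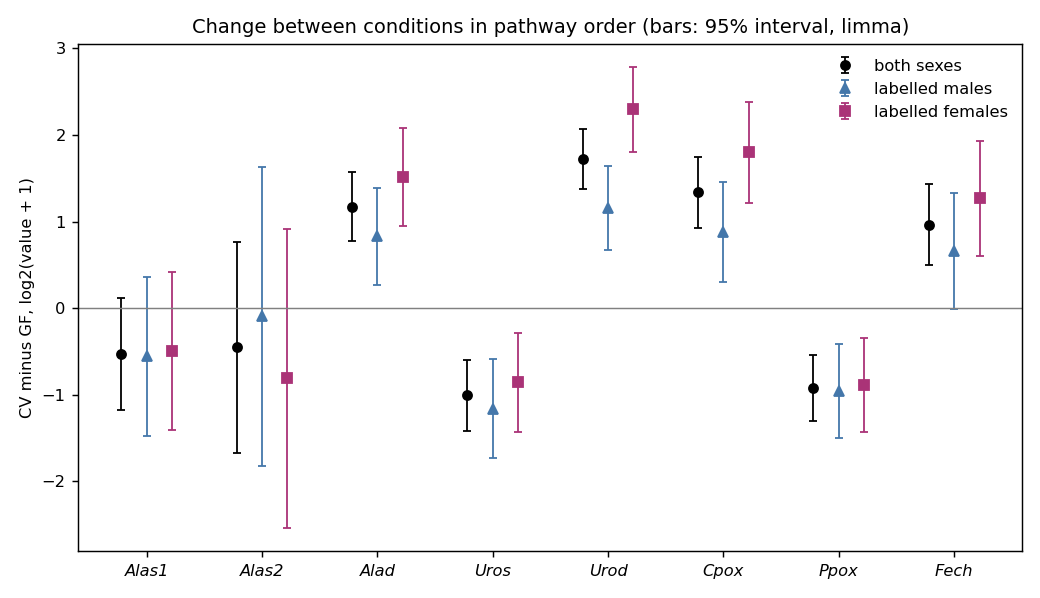
Log2(value + 1) difference, CV minus GF, of the 8 enzymes in pathway order, over both sexes and within each labelled sex, as the limma estimate with its 95% interval. Enzymes that rose and enzymes that fell were interleaved along the pathway, with Urod highest at 1.73 over both sexes and Uros lowest at -1.01. The intervals of Alas1 and Alas2 crossed 0 over both sexes and within each labelled sex, and that of Fech crossed 0 in males (-0.0053 to 1.32).

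Within labelled males, 5 of 8 enzymes were called (62.5%, against 29.5% of all tested genes), and within labelled females 6 of 8 (75.0%, against 55.8%). In males Urod rose by 1.16 (adjusted p = 0.00275, limma), Cpox by 0.88 (adjusted p = 0.0254) and Alad by 0.83 (adjusted p = 0.0292) on the log2 scale. Uros fell by 1.16 (adjusted p = 0.0063) and Ppox by 0.96 (adjusted p = 0.012) in males, while Fech had a change of 0.66 (adjusted p = 0.123). In females Urod rose by 2.30 (adjusted p = 6.15e-06), Cpox by 1.80, Alad by 1.51 and Fech by 1.27 (adjusted p = 0.00283). Uros fell by 0.86 (adjusted p = 0.0135) and Ppox by 0.89 (adjusted p = 0.00745) in females. Leaving out the library labelled CV male 3 gave 6 of 8 enzymes called over both sexes and 4 of 8 in males. Of 11782 genes, 7088 were then called over both sexes and 2974 in males. Alad missed the threshold in males (0.84, adjusted p = 0.057, limma).

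The difference between the sexes in the effect of condition was tested as an interaction, which called 0 of 8 enzymes and 0% of all genes by limma (1382 genes at an unadjusted p under 0.05). Urod differed by 1.14 (unadjusted p = 0.00292, adjusted p = 0.417, limma), with GF females below every GF male and CV females within or above the range of CV males. Cpox differed by 0.92 (unadjusted p = 0.0295, adjusted p = 0.422, limma). DESeq2 and voom also called 0 of 8 enzymes, with 2 each under an unadjusted 0.05, and edgeR called 0 of 8 with 1 there. Without CV male 1 the Urod interaction was called (1.26, adjusted p = 0.0475, limma). That fit called 291 of 11782 genes, with 3036 under an unadjusted 0.05, so the call was not particular to Urod. Leaving out the library labelled CV male 3 gave 1.13 (adjusted p = 0.62, limma).

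Over both conditions, 0 of 8 enzymes differed between labelled males and females by limma, against 1.16% of all tested genes. Urod had the lowest unadjusted p (0.0284), with males higher by 0.39 (adjusted p = 0.372). edgeR, DESeq2 and voom also called 0 of 8 and had 1 each under an unadjusted 0.05. Leaving out the library labelled CV male 3 gave 0 of 8 called by limma with 2 under an unadjusted 0.05, and 203 genes in all against 137 with it.

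Since a ratio of 2 genes within a library does not depend on its scaling, the enzymes were also set against each other. The log2 ratio of Alas1, the first enzyme, to Fech, the last, was 2.35 ± 0.71 in GF and 0.86 ± 0.75 in CV livers (SD, n = 6). The difference of -1.49 had p = 0.01 in an exact two-sided permutation test of the conditions within sex (0.02 after adjustment over 2 ratios, smallest p possible 0.005). The log2 ratio of Alas1 to Alas2 was 3.23 ± 1.35 in GF and 3.15 ± 1.26 in CV livers, a difference of -0.07 (exact permutation p = 0.955). With the library labelled CV male 3 left out, the differences were -1.62 (exact permutation p = 0.01) and -0.39 (exact permutation p = 0.635). Ratios of neighbouring steps are given as a description. Urod reads were 0.317 to 0.948 times those of Uros in GF livers and 2.52 to 5.92 times in CV livers. Cpox reads were 1.09 to 3.47 times those of Ppox in GF and 6.92 to 13.1 times in CV livers, and Alad reads 0.236 to 0.65 times those of Alas1 in GF and 0.839 to 1.82 times in CV livers. Fech reads were 1.29 to 3.76 times those of Ppox in GF and 4.25 to 11.0 times in CV livers. These ratios did not overlap between the conditions, whereas the ratio of Fech to Alas1 (0.0801 to 0.325 against 0.286 to 0.995) did. For Urod to Uros and Cpox to Ppox this had to follow, since each gene alone already separated the conditions, in opposite directions. The share of other gene pairs with separated ratios was not computed.

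**Figure D3:**
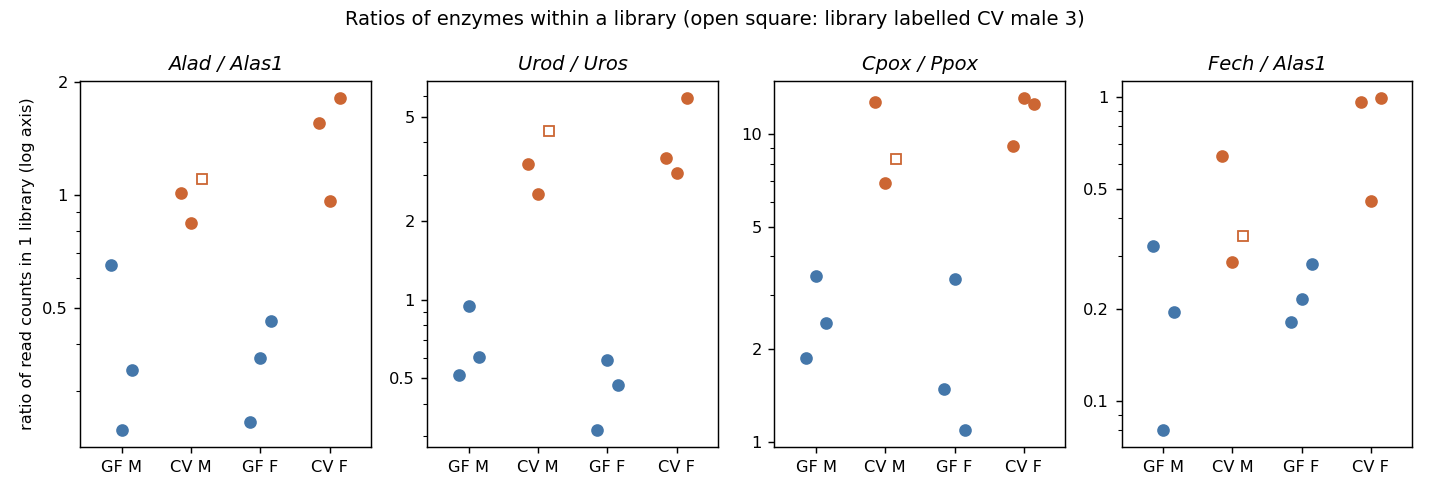
Ratio of the read counts of 2 enzymes within each library (log axis), by condition and labelled sex, with 1 point per mouse and an open square for the library labelled CV male 3. Urod to Uros was at most 0.948 in GF and at least 2.52 in CV livers, while Fech to Alas1 overlapped.

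Levels were compared between genes as normalized reads per kilobase of the principal transcript. In GF livers Alas1 (903 ± 526, SD, n = 6) and Alad (815 ± 269) led, followed by Uros (252 ± 51.2), Cpox (194 ± 58.7), Alas2 (188 ± 157), Urod (170.3 ± 64.8), Ppox (154 ± 33.7) and Fech (81.8 ± 18.3). The lowest Alad library (486) exceeded the highest Uros library (319), and every other pair of neighbours in this order overlapped. In CV livers the order of these levels was Alad (1751 ± 135), Alas1 (569 ± 157), Urod (533 ± 62.1), Cpox (477 ± 89.8), Alas2 (169 ± 217), Fech (164 ± 53.2), Uros (126 ± 29.8) and Ppox (79.2 ± 6.90). The step from Alad (at least 1565) to Alas1 (at most 708) was the gap without overlap, and the remaining neighbours overlapped. Uros went from the third to the seventh place of the 8 and Urod from the sixth to the third. The place of Alas2 above Uros in CV livers rested on CV male 1, at 602 in a CV range of 35.2 to 602.

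Because Alas2 belongs to red cell precursors, it was read beside blood markers. The sum of the globin mRNAs Hba-a1, Hba-a2, Hbb-bs and Hbb-bt, carried by reticulocytes, was 2575 to 31946 in GF (median 7228) and 784 to 2815 in CV livers (median 1682). Hba-a1 fell by 2.28, Hba-a2 by 2.21, Hbb-bs by 2.23 and Hbb-bt by 2.39 on the log2 scale, and Tfrc, the transferrin receptor, fell by 1.17 (adjusted p = 1.33e-04, limma). Near-identical globin copies can share reads, so the values of single copies are uncertain. Of the 15 blood markers 7 could be tested, of which 6 fell and 0 rose, while 28.7% of all tested genes fell. In males 3 of 7 fell, against 1814 of 11782 genes. Scaled to all reads, 6 fell and 1 rose over both sexes, and 1 fell in males. With that scaling 1613 of all genes fell and 5926 rose over both sexes, and 785 fell in males. The band 3 gene Slc4a1 read 0 to 2.68 in CV and 3.99 to 49.6 in GF livers, and the erythroid factor Gata1 was at 0 in all 12 libraries. Whether blood content moved the 8 enzymes was not tested.

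The relation of Alas2 to globin was computed within each condition. Across the 6 GF livers the Pearson r of the log2 values was 0.80 (exact permutation p = 0.0542, adjusted 0.108 over 2 relations) and Spearman's rho was 0.71 (exact permutation p = 0.136). Without GF female 2 and GF male 2, farthest from the median globin sum, r was 0.90 (exact permutation p = 0.167). Across the 6 CV livers r was -0.04 (exact permutation p = 0.942) and rho -0.09 (exact permutation p = 0.919), and r was -0.68 (exact permutation p = 0.333) without CV female 1 and CV male 2. Whether the relation differed between conditions was not tested. In CV male 1, Alas2 amounted to 82.8% of the globin sum, and in the other 11 libraries to 1.77 to 16.8%.

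**Figure D4:**
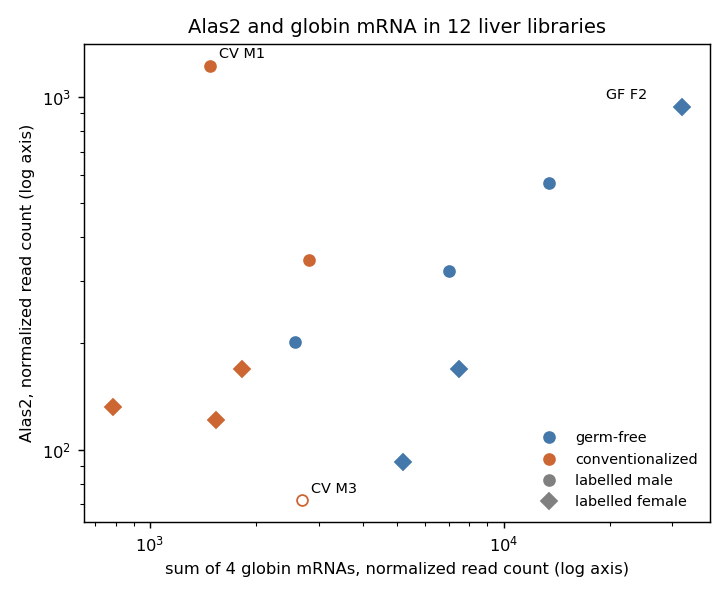
Alas2 against the sum of 4 globin mRNAs in the 12 libraries, both as normalized read counts on log axes, coloured by condition and shaped by labelled sex, with the library labelled CV male 3 open. CV male 1 stood apart with an Alas2 value of 1226 at a globin sum of 1481.

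CV male 1 also held the highest CV value of Alas1, Alad, Cpox and Fech. It had a mitochondrial ribosomal RNA share of 1.39%, near the 1.51, 1.81 and 1.78% of the CV females. CV male 2 had 5.89% and the library labelled CV male 3 had 6.32%. Nuclear protein-coding genes took 92.1% of reads in CV male 1, 75.1% in CV male 2 and 73.9% in the library labelled CV male 3. CV male 2 held the lowest CV value of Alad, Urod, Cpox and Fech. Whether library composition bears on these values was not tested. Without CV male 1, Fech still rose over both sexes (0.76, adjusted p = 0.00162, limma), whereas in males its change was 0.26 (adjusted p = 0.485) and Cpox (0.67) and Alad (0.74) were not called.

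Among 21 genes that supply mitochondria with substrate and iron or assemble iron-sulfur clusters, 14 rose and 2 fell (median log2 change 1.15, against 0.07 over all genes, of which 32.3% rose and 28.7% fell). Scaled to nuclear protein-coding reads, 12 rose and 4 fell (median 0.47), while 1496 of 11782 genes rose and 5866 fell (median -0.59). Tmem14c, which carries protoporphyrinogen into the mitochondrial matrix, rose by 1.95 (adjusted p = 9.39e-07, limma). Glrx5, a glutaredoxin of iron-sulfur cluster assembly, rose by 2.12 and Slc25a39, a mitochondrial glutathione carrier, by 2.02. The 2 genes that fell were Slc25a37 (mitoferrin, the mitochondrial iron importer), which fell by 1.51 (adjusted p = 5.64e-06), and Slc25a38, the mitochondrial glycine carrier, which fell by 0.57 (adjusted p = 0.0373) and read -0.01 when scaled to all reads. Slc25a37 was listed among the blood markers too.

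Of 15 genes of heme breakdown, export and scavenging, 9 rose and 1 fell (median 0.95), against 32.3% and 28.7% of all tested genes. When scaled to nuclear protein-coding reads, 6 rose and 5 fell (median 0.27). With that scaling 1496 of 11782 genes rose and 5866 fell (median -0.59). Hmox1, the inducible heme oxygenase that degrades heme, rose by 0.95 (adjusted p = 0.00125, limma), from 32.6 to 77.0 in GF to 62.0 to 139.7 in CV livers, and was not called with nuclear protein-coding scaling (0.27, adjusted p = 0.28). The constitutive Hmox2 rose by 1.66, the lysosomal heme transporter Slc48a1 by 1.78 and the bilirubin-conjugating Ugt1a1 by 2.22. The heme exporter Flvcr1 fell by 1.26 (adjusted p = 0.00319).

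Of 16 factors known to act on Alas1 transcription, 3 rose and 7 fell (median -0.29). This split turned with the scaling, to 6 that rose and 1 that fell with all reads (median 0.27). With nuclear protein-coding reads 0 rose and 9 fell (median -0.98). The split of all 11782 tested genes turned the same way. It was 3807 higher and 3387 lower with the deposited factors, 5926 and 1613 with all reads, and 1496 and 5866 with nuclear protein-coding reads. The turn was thus not particular to these factors. Ppargc1a, the coactivator of the fasting response that induces Alas1, fell by 2.36 (adjusted p = 4.86e-07, limma), from 234 to 565 in GF to 60.4 to 104 in CV livers without overlap. The corepressor Ncor1 fell by 0.98 and the oxidative stress factor Nfe2l2 by 0.79, and neither was called when scaled to all reads (-0.42, adjusted p = 0.0739, and -0.23, adjusted p = 0.332). The nuclear receptors Rxra (0.54), Nr1d1 (0.65) and Hnf4a (0.44, also listed as a hepatocyte marker) rose, and each turned negative when scaled to nuclear protein-coding reads (-0.14, -0.04 and -0.25).

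Among 24 heme proteins of liver and their partners, 18 rose and 1 fell (median 1.17). Scaled to nuclear protein-coding reads, 12 rose and 3 fell (median 0.48), against 1496 and 5866 of 11782 genes. In males alone, with the deposited factors, 10 rose and 0 fell, against 1660 and 1814 genes. Cyc1, the cytochrome of respiratory complex III, rose by 1.86 (adjusted p = 1.61e-06, limma), the drug-metabolizing Cyp3a11 by 1.84 and Sdhc, a heme-binding subunit of succinate dehydrogenase, by 1.65. The gene that fell was Ncf1 (-0.61, adjusted p = 0.0497), which encodes a cytosolic subunit of the phagocyte oxidase and no heme protein itself. The list also holds the flavoproteins Por and Cyb5r3, which pass electrons to heme proteins. In the list of other liver cells, 3 of 14 tested markers rose and 4 fell. Of all tested genes 32.3% rose and 28.7% fell, so these counts did not set the list apart. The Kupffer cell genes Cd5l and Adgre1 rose by 1.03 and 0.70 and the stellate cell gene Dcn by 0.61, of which 0 were called when scaled to nuclear protein-coding reads. Clec4f, also a Kupffer cell gene of the list, overlapped between the conditions, with 415 to 874 in GF and 384 to 971 in CV livers. The leukocyte genes Ptprc and Cd3e fell by 1.96 and 1.52 and the endothelial Stab2 by 1.87. The summed value of that list was 2892 to 4865 in GF and 2168 to 4549 in CV livers, and its part in these changes was not tested.

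**Figure D5:**
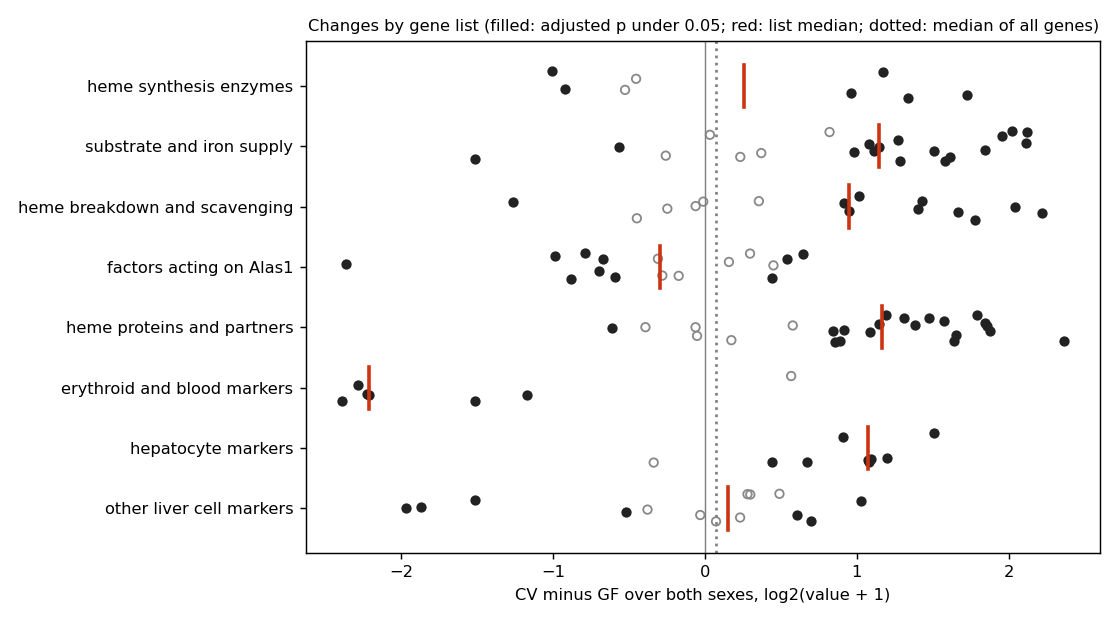
Log2(value + 1) difference, CV minus GF over both sexes, for each tested gene of the 8 enzymes and the 7 gene lists, with filled points for an adjusted p under 0.05, a red bar at each list's median and a dotted line at the median of all genes (0.07). The 8 enzymes lay on both sides of 0, while the medians of the supply, breakdown and heme protein lists lay at 1.15, 0.95 and 1.17.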

How the data were processed

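The authors deposited one gene table with a normalized signal per library. Per the labels, HTSeq 0.6.1p1, DESeq2 and build GRCm38 were used on stranded mRNA libraries. The aligner, annotation and strand setting are not given in the sources used here. The deposited signal was whole reads divided by 1 size factor: 100% of values were whole multiples of 1 read within 0.01 reads, and the factors equalled DESeq2 factors recomputed over 12512 genes. No method was taken from the paper named for the series, which describes a brain experiment.

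Groups and sexes came from the sample labels. limma 3.58.1 (R 4.3.3) was fitted to log2(value + 1) with 1 mean per condition and labelled sex, an empirical Bayes trend and Benjamini-Hochberg adjustment at 0.05, in a single fit of 12 libraries (8 residual degrees of freedom). Fold changes on this scale understate those of low genes. p-values measure the spread between mice. Exact permutation tests enumerated all relabellings or pairings in Python 3.11.15 with numpy 2.4.6. The ranks for Spearman's rho and the t quantiles of the 95% intervals came from scipy 1.17.1. Fits were tested on simulated data in which a small part of the genes changed, in both directions, without a shift in library composition. That test does not bear on the choice of scaling. On the recovered reads, edgeR 4.0.16 (quasi-likelihood, TMM) called 7316 and DESeq2 1.42.0 called 7468 genes over both sexes, against 7194 by limma.

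The enzymes and gene lists were chosen with earlier results of these data known. All 8 enzymes were named, with, from each list, up to 3 genes of the smallest adjusted p in each direction, and Hmox1, Ppargc1a, Tfrc and the globins. A few listed genes that this rule does not name (Slc4a1, Gata1, Por, Cyb5r3, Clec4f, Cps1) were added after their values were seen, as were overlapping neighbours. Annotation and transcript lengths came from GENCODE release M21 (97.9% of identifiers matched). The trend on length and GC was a loess with span 0.3. The replicate block combined with that trend removal was chosen after seeing the data. Ahsp and Tf were not analysed here, and 1 listed gene is not reported here.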

Additional observations from a re-analysis of the deposited data

How the results depend on the processing

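Over both sexes 6 of 8 enzymes were called. Between 4 and 7 were called under all alternatives run except the mitochondrial ribosomal RNA share as covariate, which gave 0 called over both sexes, in males and in females, and turned Fech to -0.30 over both sexes, -0.10 in males and -0.51 in females. In males the replicate number as a block gave 3 called, with 2603 of 11782 genes. The block with the length and GC trend removed gave 2, with 2052 of 11731 genes. The main fit called 3474 of 11782 genes in males. Leaving out 1 library gave 2 to 5 called in males, 5 to 6 in females and 6 to 7 over both sexes. In males 2 were called without GF male 1 (1604 of 11782 genes), 3 without GF male 3 (2135) and 3 without CV male 1 (2183). In the interaction 0 to 1 were called, with 1 without CV male 1, where 291 of all genes were called.

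Alas1 and Alas2, which did not pass the test, changed sign in some settings. Scaled to all reads, Alas1 was 0.036 over both sexes and 0.32 in females, and Alas2 was 0.11 over both sexes and 0.22 in males. In males Alas2 was 0.53 with edgeR and 0.54 with DESeq2. With 1 library left out, Alas2 ranged from -0.94 to 0.075 over both sexes, -1.08 to 0.96 in males and -1.51 to 0.16 in females, the log2 ratio of Alas1 to Alas2 from -0.39 to 0.36, and r of Alas2 with globin from 0.58 to 0.91 in GF (0.91, exact permutation p = 0.0333, without GF male 2) and -0.39 to 0.28 in CV livers. The cause was not tested for any of these.

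Same-numbered GF and CV libraries did not deviate together (r of -0.23 to 0.02), and same-numbered males and females correlated at 0.06, 0.40 and 0.07 in GF and at 0.19, 0.12 and 0.17 in CV livers. Not every pair exceeded 0.1 and not every GF library correlated best with its own number, so no pairing was assumed, while in CV each library correlated best with its own number, a hint from the data and not from the labels. With the replicate block, 6827 genes were called over both sexes and 355 between sexes, against 7194 and 137. DESeq2 called 261 between sexes. Scaling moved the split of all called genes from 3807 higher and 3387 lower to 5926 and 1613 (all reads) or 1496 and 5866 (nuclear protein-coding reads). Depth limited Alas2 and Ppox most, with as few as 61 and 67 reads in 1 library.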

Other observations

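Over the 12 libraries, the tested genes whose log2 values were most alike to those of Alas1 were Bag3, a co-chaperone (Pearson r = 0.86), Zfp652 (0.85), Dcaf10 (0.84), Dnajc5 (0.84) and Ik (0.84). These are descriptions over libraries that share condition and composition. Of these genes, Bag3 fell by 0.93 (adjusted p = 0.00475, limma) and Ik by 0.43 (adjusted p = 0.0319) in CV livers.

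The annotation lists transcripts that retain an intron for 7 of 10 Urod transcripts, 5 of 8 Ppox transcripts and 0 of 3 Alad transcripts. Reads per gene do not separate these forms from the spliced ones.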
